A study of Mus musculus with 26 samples.

Results

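The 10 genes described here code for molecules through which regulatory T (Treg) cells restrain other cells or support tissue repair: Ctla4, Il10, Ebi3, Entpd1, Nt5e, Lrrc32, Tgfb1, Areg, Fgl2 and Nrp1. They were taken by gene symbol, and all 10 were found among the 24848 genes of every table. The study sequenced RNA from Treg cells (CD4+Foxp3+) and conventional T (Tconv) cells (CD4+Foxp3-) of C57BL/6 mice on day 14 of EAE, experimental autoimmune encephalomyelitis, which serves in mice as a model of multiple sclerosis. Cells were taken either from the CNS (central nervous system) or from the dLN (draining lymph nodes). icKO mice carried Foxp3Cre-ERT2 and floxed alleles of Tnfrsf1b, which codes for the tumour necrosis factor receptor TNFR2, and Ctrl mice carried Foxp3Cre-ERT2 alone. Both received tamoxifen from day 7 to day 14, so the Cre allele and the drug were shared by every group. Foxp3 drives this Cre, so Treg cells were the targeted cells and Tconv cells of icKO mice were not. There were 3 libraries in each of the 4 Treg groups and in each dLN Tconv group, and 4 in each CNS Tconv group, 26 in all. The labels call each library a mouse replicate and give no further detail of its source.

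Treg cells depend on the transcription factor Foxp3 and restrain inflammation by contact, by enzymes on their surface and by secreted factors. CTLA-4 takes CD80 and CD86 away from CD28, the enzymes CD39 (Entpd1) and CD73 (Nt5e) act in sequence to turn extracellular ATP into adenosine, and GARP (Lrrc32) holds the latent form of TGF-beta 1 (Tgfb1) on the cell surface. IL-10 and the EBI3 subunit of IL-27 and IL-35 are cytokines, FGL2 is a secreted or membrane-bound fibrinogen-like protein, neuropilin-1 (Nrp1) is a co-receptor for semaphorins, and amphiregulin (Areg) is an EGF receptor ligand tied to tissue repair. Myeloid cells, microglia among them, are also known to make Entpd1, Fgl2, Tgfb1, Il10, Nrp1 and Areg, and dendritic cells to make Ebi3. Ctla4 is chiefly a T cell gene.

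Library totals ran from 12.42 to 18.53 M expected counts in 25 libraries, which detected 11089 to 14259 genes each. The library that the labels call dLN Tconv icKO replicate 3 stood apart, with 7.78 M counts, 6005 genes detected and a highest rank correlation of 0.685 with any other library, against at least 0.953 for the others. It was left out of the model, so that group has 2 libraries here, and each count of members called is also given with all 26 libraries. The file names of 5 CNS Tconv libraries (Ctrl replicates 3 and 4, icKO replicates 2, 3 and 4) carry the prefix of the other genotype, and the labels were followed. Foxp3 lay between 23.9 and 69.4 CPM (counts scaled to a common library total and normalised between libraries) in Treg libraries and between 0.114 and 1.53 CPM in Tconv libraries, with no overlap. Tnfrsf1b lay at 510, 357 and 352 CPM in CNS Treg icKO libraries and at 454, 712 and 664 CPM in CNS Treg Ctrl libraries, and at 619.8, 619.5 and 618 CPM in dLN Treg icKO libraries against 793, 736 and 857 CPM in dLN Treg Ctrl libraries. The log2 fold changes were -0.59 ± 0.16 (SE; edgeR adjusted p = 0.55) in the CNS and -0.36 ± 0.16 (adjusted p = 1) in the dLN. These counts cover the whole gene and the part removed by Cre is not stated, so they do not measure the deletion itself.

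RNA of myeloid cells was present to very different extents. Summed over 18 myeloid markers, CPM of the library total ran from 4468 to 6979 in the 6 CNS Treg libraries, with 17 or 18 markers above 0, and from 165 to 1020 in the 6 dLN Treg libraries, with 15 to 17 above 0. The sums were 61.4 to 431 in the 8 CNS Tconv libraries and 122 to 256 in the 5 dLN Tconv libraries. Summed over 10 microglia markers, CNS Treg libraries held 2043 to 2719 CPM and dLN Treg libraries 96.0 to 157 CPM, and summed over 10 dendritic cell markers they held 6010 to 7135 CPM and 499 to 1123 CPM. CNS Treg libraries therefore carried myeloid markers at a level that the other populations did not reach. Summed over 8 T cell markers, the CNS Treg libraries held 5606 to 7185 CPM and the dLN Treg libraries 5696 to 6640 CPM, so T cell markers overlapped between the tissues. In bulk libraries such as these, fewer cells that express a gene and less RNA per cell cannot be told apart.

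The upstream sequences of 3 members are shown as examples. Ctla4 was called higher in Treg cells of both tissues and both genotypes. Areg, scarce in every group, was called higher in Treg cells in all but the icKO CNS. Fgl2 was called higher in the CNS in both cell types. Each run is the 250 bases before the RefSeq start on the + strand of GRCm38.p6, in lower case, with matches to searched motifs in capitals. They lie at chr1:60908775-60909024 (Ctla4), chr5:91139349-91139598 (Areg) and chr5:21372423-21372672 (Fgl2).
Ctla4: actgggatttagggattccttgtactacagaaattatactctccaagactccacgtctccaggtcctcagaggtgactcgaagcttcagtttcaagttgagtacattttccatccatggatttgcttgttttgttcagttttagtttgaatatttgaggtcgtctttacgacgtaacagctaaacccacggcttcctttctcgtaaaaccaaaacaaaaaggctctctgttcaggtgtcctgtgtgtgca
Areg: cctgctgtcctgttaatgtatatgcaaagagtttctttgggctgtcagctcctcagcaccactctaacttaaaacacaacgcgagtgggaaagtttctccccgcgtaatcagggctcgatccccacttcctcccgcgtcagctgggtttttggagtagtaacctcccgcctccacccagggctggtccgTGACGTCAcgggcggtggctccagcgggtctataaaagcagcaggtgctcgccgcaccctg
Fgl2: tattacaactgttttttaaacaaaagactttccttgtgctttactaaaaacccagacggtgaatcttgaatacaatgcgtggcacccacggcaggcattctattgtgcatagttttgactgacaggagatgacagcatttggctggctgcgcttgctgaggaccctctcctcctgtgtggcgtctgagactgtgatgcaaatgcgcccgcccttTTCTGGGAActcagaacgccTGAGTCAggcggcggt
RefSeq gave 9 promoters for 8 of the 10 members. The search used both strands and 5 motifs: the cyclic AMP response element TGACGTCA, the AP-1 motif TGANTCA, the STAT motif TTCNNNGAA, the forkhead motif TGTTTAC and the longer NF-kB motif, which is given by name alone. The Areg window held TGACGTCA 61 bases before the start, a motif found in 1.55% of 32851 mouse promoters of the same length. The Fgl2 window held TGAGTCA, an AP-1 match, 16 bases before the start and TTCTGGGAA, a STAT match, 36 bases before it, motifs found in 6.75% and 7.02% of promoters. The Ctla4 window held none of the 5 motifs. The forkhead and NF-kB motifs, found in 3.17% and 0.98% of all promoters, were in none of the 9 members' windows. A match is a description of these letters and not a measured binding site.

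Among themselves the members spanned a wide range of abundance, and the order depended on the cell type. On the TPM scale, which corrects for transcript length, Ctla4 was the most abundant of the 10 in all 4 Treg groups, at 306 ± 72.1 TPM in CNS icKO, 365 ± 162 TPM in CNS Ctrl, 428 ± 10.4 TPM in dLN icKO and 414 ± 45.8 TPM in dLN Ctrl libraries (SD, n = 3 each). Ebi3 came next in dLN Treg libraries, at 195 ± 16.1 TPM in icKO and 206 ± 10.5 TPM in Ctrl (SD, n = 3 each). In CNS Treg libraries Ebi3 was seventh, and Lrrc32 (124 ± 46.4 TPM in icKO, 141 ± 57.8 TPM in Ctrl) and Fgl2 (124 ± 50.0 TPM in icKO, 135 ± 41.6 TPM in Ctrl) came next after Ctla4. Fgl2, Tgfb1 and Nrp1 lay within 1 SD of the Lrrc32 mean there, so the order of these 4 is not resolved. In CNS Treg Ctrl libraries Nt5e (90.75 ± 14.2 TPM) and Ebi3 (90.74 ± 44.7 TPM) did so too. Their places, seventh for Ebi3 among them, are not resolved in that group. In all 4 Tconv groups Tgfb1 had the highest mean of the members, from 119 ± 16.5 TPM in CNS icKO (n = 4) to 85.6 ± 5.83 TPM in dLN Ctrl libraries (n = 3). In CNS Tconv icKO libraries Fgl2 lay within 1 SD of it, at 110 ± 30.9 TPM (SD, n = 4), so first place is not resolved there. Areg and Il10 were scarce throughout. Il10 averaged 3.02 ± 4.23 and 3.94 ± 1.97 TPM in CNS Treg icKO and Ctrl libraries and 3.84 ± 2.15 and 3.75 ± 1.40 TPM in dLN Treg icKO and Ctrl libraries (SD, n = 3 each), and it reached 80 counts at most in any library.

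Replicates of CNS groups scattered more than those of dLN Treg groups. Over the members other than Il10, the median coefficient of variation of CPM was 33.1% in icKO and 34.8% in Ctrl CNS Treg libraries, against 9.92% in icKO and 11% in Ctrl dLN Treg libraries, and it was 36.6% in icKO and 37.8% in Ctrl CNS Tconv libraries.

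**Figure D1:**
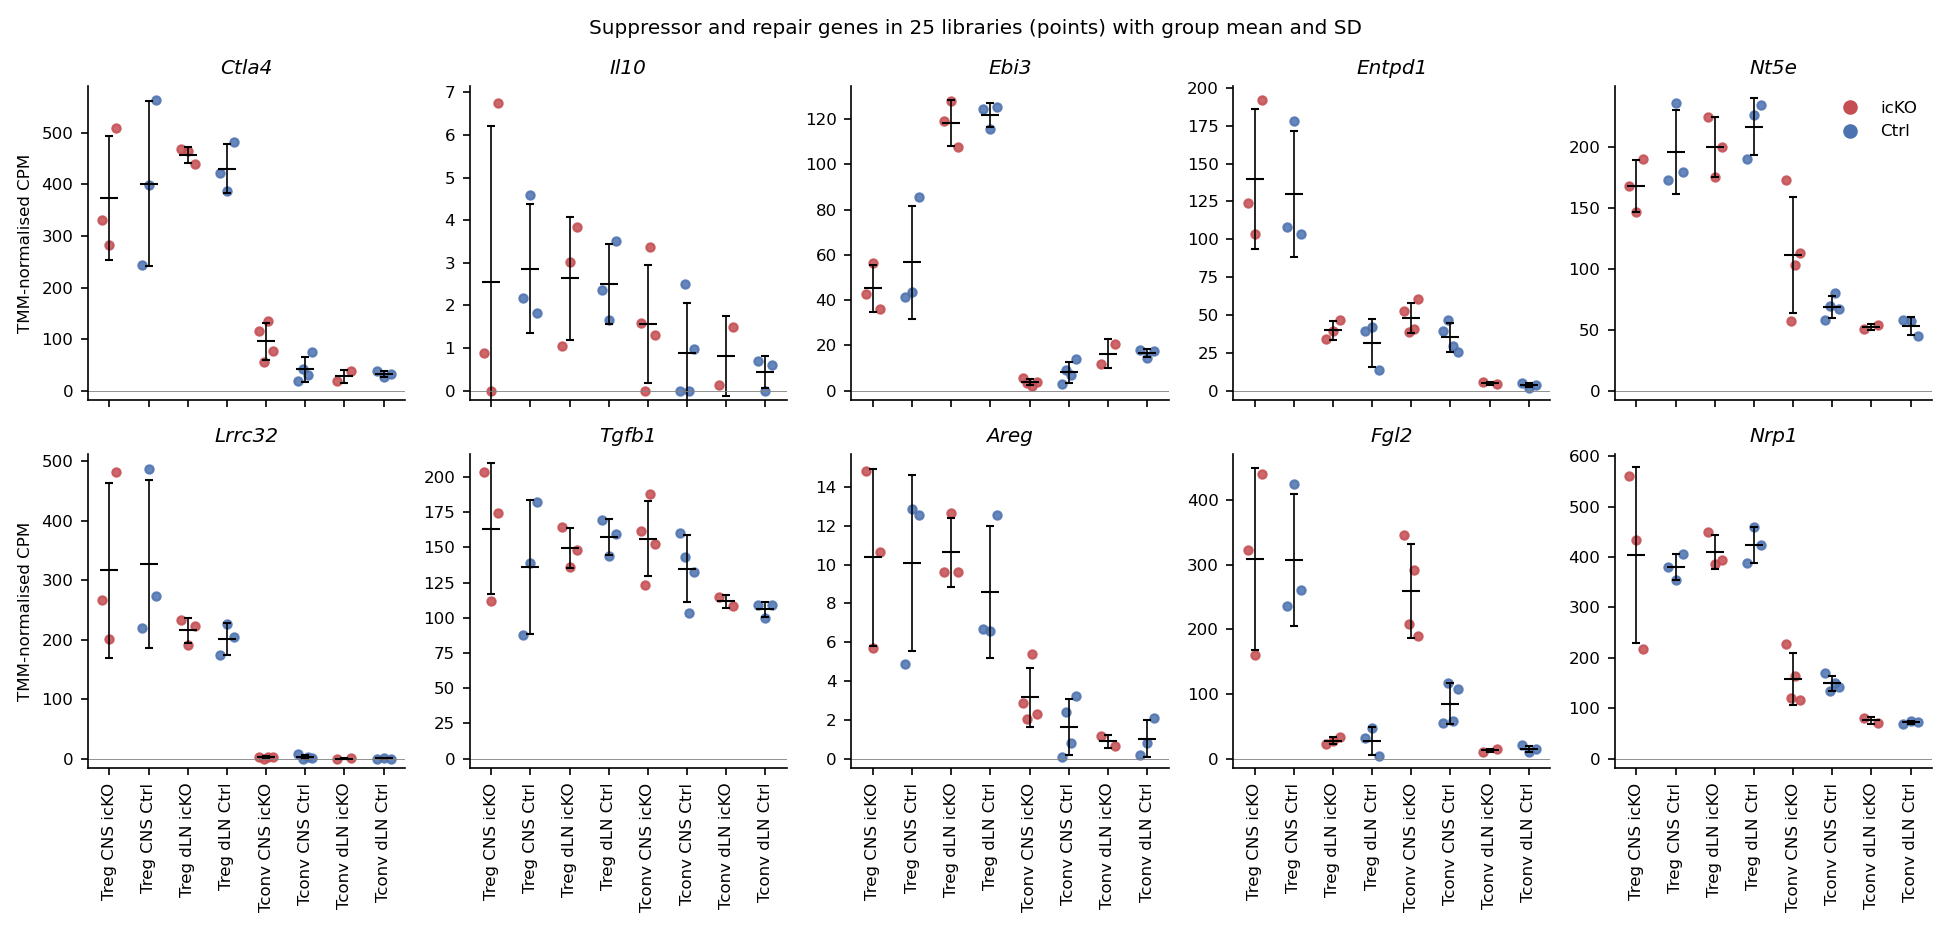
Level of each of the 10 members in every library (TMM-normalised CPM, linear axes from 0), by population and genotype, icKO in red and Ctrl in blue, with the group mean and SD. Ctla4, Lrrc32 and Nrp1 are high in Treg libraries of both tissues, Fgl2 and Entpd1 are high in CNS Treg libraries, and the genotypes overlap for Ctla4 in every population.

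Treg cells were first set against Tconv cells of the same tissue and genotype. In the dLN, 7 members were higher in Treg cells in icKO mice, when 5.47% of the 13500 genes tested were higher, and 7 were higher in Ctrl mice, when 5.97% of genes were (edgeR quasi-likelihood test, adjusted p under 0.05). They were the same 7: Ctla4, Ebi3, Entpd1, Nt5e, Lrrc32, Areg and Nrp1. With all 26 libraries the counts were 4 in icKO and 6 in Ctrl mice, against 1.95% and 0.935% of 13054 genes. The icKO calls of Ebi3 (adjusted p = 0.12), Nt5e (0.19) and Areg (0.8) and the Ctrl call of Areg (0.23) were lost. The median log2 fold change of the 10 members was 2.65 in icKO and 2.71 in Ctrl mice, against 0 over all genes in both. Tgfb1, Fgl2 and Il10 were not called in either genotype.

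Lrrc32, which codes for GARP (chr7:98489283-98502181, GRCm38, + strand, as all 10 members), separated the cell types most widely. It lay at 267, 201 and 481 CPM in CNS Treg icKO libraries, 220, 488 and 274 CPM in CNS Treg Ctrl libraries, 233, 192 and 223 CPM in dLN Treg icKO libraries, and 174, 227 and 204 CPM in dLN Treg Ctrl libraries. No Tconv library exceeded 7.82 CPM, and 5 of the 13 Tconv libraries in the model were at 0: 1 in each CNS group, 1 dLN icKO and 2 dLN Ctrl libraries. Summed counts were 9768 in dLN Treg icKO and 8896 in dLN Treg Ctrl libraries, against 24 in the 3 dLN Tconv Ctrl libraries, so the fitted log2 fold changes of 9.67 ± 1.55 in icKO (adjusted p = 0.00041) and 8.49 ± 1.17 in Ctrl mice (adjusted p = 6.8e-05) rest on very few Tconv reads. In the CNS they were 7.01 ± 0.90 in icKO and 6.87 ± 0.89 in Ctrl mice (SE; adjusted p = 3e-05 in both).

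Ctla4, the checkpoint receptor (chr1:60887000-60915832), lay at 468, 465 and 439 CPM in dLN Treg icKO libraries against 19.3 and 37.2 CPM in dLN Tconv icKO libraries, and at 422, 388 and 482 CPM in dLN Treg Ctrl libraries against 37.3, 26.3 and 32.9 CPM in dLN Tconv Ctrl libraries. The cell types did not overlap, and the log2 fold changes were 4.02 ± 0.54 in icKO (SE; edgeR adjusted p = 5.4e-05) and 3.74 ± 0.45 in Ctrl mice (adjusted p = 1e-05). In the CNS the Treg libraries held 331, 282 and 509.8 CPM in icKO mice against 116, 55.3, 135 and 76.0 CPM in Tconv libraries, and 244, 398 and 564 CPM in Ctrl mice against 17.9, 41.1, 31.3 and 74.7 CPM. The fold changes there were 1.97 ± 0.38 (adjusted p = 0.0012) and 3.29 ± 0.39 (adjusted p = 8.9e-06). The icKO call of Ctla4 in the CNS was lost without the 5 CNS Tconv libraries whose file names disagree, which leaves 1 icKO Tconv library. Nrp1, the semaphorin co-receptor (chr8:128358604-128503363), lay between 217 and 562 CPM in all Treg libraries and between 68.9 and 228 CPM in all Tconv libraries, an overlap made by CNS Treg icKO replicate 3 and CNS Tconv icKO replicate 1. Its log2 fold changes of Treg over Tconv were 1.36 ± 0.22 and 1.35 ± 0.22 in the CNS of icKO and Ctrl mice (adjusted p = 0.00021 and 0.00019) and 2.44 ± 0.30 and 2.55 ± 0.25 in the dLN (adjusted p = 1.1e-05 and 6.3e-07).

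The cytokine subunit Ebi3 (chr17:55952640-55957022) was higher in Treg cells of both tissues and both genotypes, though the icKO dLN call was lost with all 26 libraries (edgeR adjusted p = 0.12). CNS Treg libraries held 42.9, 56.6 and 36.1 CPM in icKO and 41.3, 43.6 and 85.5 CPM in Ctrl mice, against 2.23 to 5.60 CPM for CNS Tconv icKO libraries and 2.80 to 13.9 CPM for CNS Tconv Ctrl libraries. The log2 fold changes were 3.55 ± 0.38 in icKO (SE; edgeR adjusted p = 1.3e-06) and 2.79 ± 0.36 in Ctrl mice (adjusted p = 1.5e-05), and in the dLN 2.86 ± 0.47 (adjusted p = 0.00032) and 2.87 ± 0.40 (adjusted p = 3.7e-05). Areg (chr5:91139599-91148432) lay at 9.61, 12.7 and 9.62 CPM in dLN Treg icKO libraries against 1.15 and 0.668 CPM in dLN Tconv icKO libraries, and at 6.67, 6.60 and 12.5 CPM in dLN Treg Ctrl libraries against 0.193, 0.823 and 2.10 CPM in dLN Tconv Ctrl libraries. The groups did not overlap, and the fold changes were 3.54 ± 0.99 (adjusted p = 0.024) and 3.05 ± 0.82 (adjusted p = 0.017). The Areg call in icKO mice was lost without dLN Treg icKO replicate 2 (adjusted p = 0.056) or dLN Tconv icKO replicate 1 or 2 (0.16 and 0.21), and that in Ctrl mice without dLN Treg Ctrl replicate 3 (0.067) or dLN Tconv Ctrl replicate 1 or 2 (0.078 and 0.081). dLN Treg icKO replicate 2, with the highest Areg of its group (12.7 CPM), was also the one library of that group with mast cell and basophil markers. In it 6 of 7 markers were above 0 and summed to 63.9 CPM, against 0 CPM in replicates 1 and 3. Their part in its Areg value was not tested. Il10 (chr1:131019845-131024974) had log2 fold changes of 0.69 to 2.5 with standard errors of 1.43 to 1.84 and adjusted p of 0.38 to 0.82 in these 4 comparisons. Its counts within a group were uneven, from 0 to 80 among the 3 CNS Treg icKO libraries.

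Both enzymes of the adenosine route were higher in dLN Treg cells, though the icKO call of Nt5e was lost with all 26 libraries (edgeR adjusted p = 0.19). Entpd1 (chr19:40612366-40741602), which codes for CD39, lay at 33.9, 39.1 and 46.6 CPM in dLN Treg icKO libraries against 5.52 and 4.15 CPM in dLN Tconv icKO libraries, and at 39.4, 42.2 and 13.4 CPM in dLN Treg Ctrl libraries against 5.20, 2.06 and 3.75 CPM in dLN Tconv Ctrl libraries. Nt5e (chr9:88327197-88372092), which codes for CD73, lay at 224, 175 and 199.9 CPM in dLN Treg icKO libraries against 50.5 and 54.1 CPM in dLN Tconv icKO libraries, and at 189.5, 226 and 234 CPM in dLN Treg Ctrl libraries against 58.0, 57.0 and 44.5 CPM in dLN Tconv Ctrl libraries. Neither gene overlapped between the cell types there. The log2 fold changes in icKO and Ctrl mice were 3.04 ± 0.47 and 3.10 ± 0.40 for Entpd1 (SE; edgeR adjusted p = 0.00017 and 1.8e-05) and 1.93 ± 0.29 and 2.02 ± 0.25 for Nt5e (adjusted p = 0.00013 and 1e-05). Tgfb1 (chr7:25687002-25705077) was not called in any of the 4 comparisons, with log2 fold changes of 0.42 in icKO and 0.57 ± 0.22 in Ctrl dLN (adjusted p = 0.33 and 0.1), and of 0.06 and 0.02 in the CNS (adjusted p = 0.89 and 0.97).

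In the CNS, 5 members were higher in Treg cells of icKO mice (Ctla4, Ebi3, Entpd1, Lrrc32 and Nrp1), when 8.28% of genes were, and 8 were higher in Ctrl mice (the same 5 with Nt5e, Areg and Fgl2), when 10.8% of genes were. With all 26 libraries the counts were 3 and 5, against 3.02% and 4.36% of genes. Among the calls lost were Entpd1 in icKO (edgeR adjusted p = 0.23) and Ctrl mice (0.086) and Fgl2 in Ctrl mice (0.17). The member medians were 1.45 in icKO and 1.87 in Ctrl mice, against 0 and 0.02 over all genes. Entpd1 was higher in CNS Treg cells by 1.54 ± 0.33 in icKO (adjusted p = 0.0026) and 1.88 ± 0.33 in Ctrl mice (adjusted p = 0.00036), and Nt5e by 1.52 ± 0.22 in Ctrl mice (adjusted p = 6.6e-05), while Nt5e in icKO mice had 0.59 ± 0.22 (adjusted p = 0.085). Fgl2 (chr5:21372642-21378374) had 0.25 ± 0.48 (adjusted p = 0.8) in icKO and 1.85 ± 0.48 (adjusted p = 0.011) in Ctrl mice. Areg had 1.72 ± 0.70 (adjusted p = 0.11) in icKO and 2.62 ± 0.72 (adjusted p = 0.014) in Ctrl mice. Leaving out CNS Treg Ctrl replicate 2 ended the Areg and Fgl2 calls in Ctrl mice (adjusted p = 0.051 and 0.061). The myeloid sums differed the same way in these comparisons. They lay at 4468 to 6260 CPM in CNS Treg icKO against 158 to 431 CPM in CNS Tconv icKO libraries. In Ctrl mice they lay at 4877 to 6979 CPM in CNS Treg against 61.4 to 418 CPM in CNS Tconv libraries. Their part in the values of Entpd1, Fgl2, Nrp1, Ebi3 and Areg was not tested. In dLN Treg libraries, where the myeloid sum was at most 1020 CPM, Ctla4 lay between 388 and 482 CPM and Lrrc32 between 174 and 233 CPM.

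**Figure D2:**
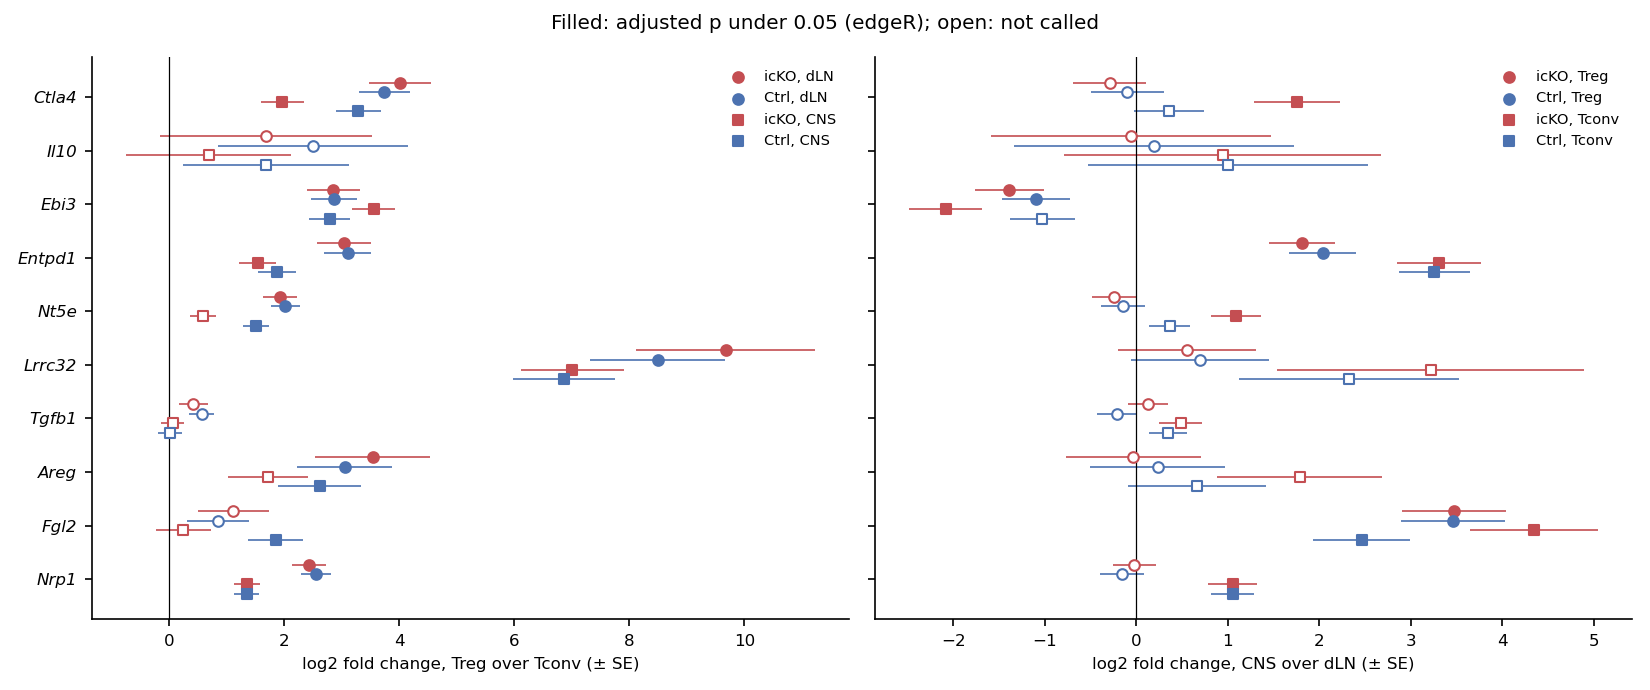
Log2 fold change with its standard error of each member for Treg over Tconv (left) and CNS over dLN (right), 4 comparisons each; filled points have an edgeR adjusted p under 0.05 and open points do not. Lrrc32 has the highest Treg over Tconv values (6.87 to 9.67), Fgl2 has the highest CNS over dLN values in 3 of the 4 comparisons, and Ebi3 lies below 0 in all 4 CNS over dLN comparisons.

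Between tissues, Fgl2 and Entpd1 were higher and Ebi3 lower in Treg cells of the CNS, in both genotypes. CNS against dLN Treg cells gave 3 calls of 10 in icKO mice, when 22.4% of genes were called, and 3 of 10 in Ctrl mice, when 21.8% were, a share of members near the background. They were the same 3 in both genotypes: Entpd1 and Fgl2 higher and Ebi3 lower in the CNS. With all 26 libraries 1 member was called in each, Fgl2, against 5.12% and 5.74% of genes. The member median log2 fold change was -0.03 in icKO and 0.04 in Ctrl mice. Ctla4 (-0.29 in icKO, -0.10 in Ctrl), Nrp1 (-0.02 and -0.16) and Lrrc32 (0.55 ± 0.75 and 0.70 ± 0.76) were not called.

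Fgl2 differed most. CNS Treg libraries held 323, 161 and 441 CPM in icKO and 237, 425 and 261 CPM in Ctrl mice, against 22.8, 27.2 and 33.4 CPM in dLN Treg icKO and 31.7, 47.2 and 4.59 CPM in dLN Treg Ctrl libraries. The tissues did not overlap, and the log2 fold changes were 3.47 ± 0.57 in icKO (SE; edgeR adjusted p = 0.00026) and 3.46 ± 0.57 in Ctrl mice (adjusted p = 0.00032). Entpd1 lay at 124, 103 and 192 CPM in CNS Treg icKO and 108, 178 and 104 CPM in CNS Treg Ctrl libraries, against at most 46.6 CPM in dLN Treg libraries, with log2 fold changes of 1.81 ± 0.36 (adjusted p = 0.0011) and 2.04 ± 0.36 (adjusted p = 0.00049). The myeloid sums moved with both genes, and 17 of the 18 myeloid markers in icKO and 16 in Ctrl mice were themselves called higher in CNS Treg cells, as were all 10 microglia markers in both. Among dLN Treg libraries, Ctrl replicate 3 had the lowest myeloid sum (165 CPM) and also the lowest Fgl2 and Entpd1 (4.59 and 13.4 CPM). Both genes rose with the sum over the dLN Treg Ctrl libraries and fell with it over the icKO libraries. In icKO replicates 1, 2 and 3 the sums were 798, 718 and 415 CPM. Fgl2 lay at 22.8, 27.2 and 33.4 CPM there and Entpd1 at 33.9, 39.1 and 46.6 CPM. The part of myeloid RNA in the CNS Treg values of Fgl2 and Entpd1 was not tested.

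**Figure D3:**
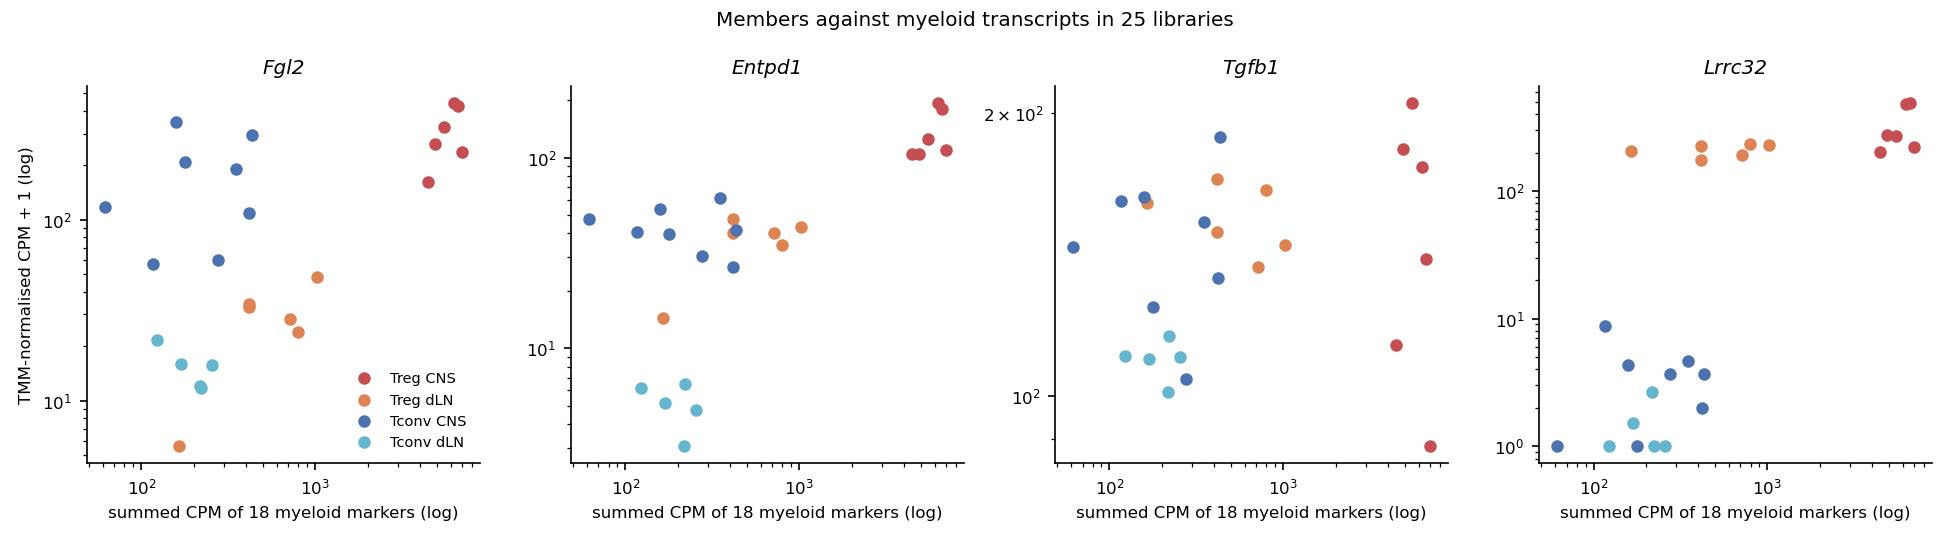
Fgl2, Entpd1, Tgfb1 and Lrrc32 (CPM + 1, log axis) against the summed CPM of 18 myeloid markers (log axis) in each of the 25 libraries, coloured by population. CNS Tconv libraries spread over a wider range of myeloid sum than dLN Tconv libraries (61.4 to 431 against 122 to 256 CPM) and lie above them in Fgl2 and Entpd1; Lrrc32 splits by cell type.

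Ebi3 went the other way. It lay at 42.9, 56.6 and 36.1 CPM in CNS Treg icKO libraries against 119, 128 and 108 CPM in dLN Treg icKO libraries, and at 41.3, 43.6 and 85.5 CPM in CNS Treg Ctrl libraries against 125, 116 and 125 CPM in dLN Treg Ctrl libraries. The tissues did not overlap, and the log2 fold changes were -1.39 ± 0.37 in icKO (SE; edgeR adjusted p = 0.01) and -1.10 ± 0.37 in Ctrl mice (adjusted p = 0.036). These are calls close to the threshold. The Ctrl call did not survive leaving out CNS Treg Ctrl replicate 1 or 2 (adjusted p = 0.15 in both) or without any 1 of the 3 dLN Treg Ctrl libraries (0.066 to 0.087), and the icKO call without CNS Treg icKO replicate 3 (0.0504).

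Fgl2 and Entpd1 were also higher in the CNS in Tconv cells, in both genotypes. CNS against dLN Tconv cells gave 6 calls of 10 in icKO mice (Ctla4, Entpd1, Nt5e, Fgl2 and Nrp1 higher, Ebi3 lower), when 14.0% of genes were called, and 3 of 10 in Ctrl mice (Entpd1, Fgl2 and Nrp1 higher), when 8.91% were. With all 26 libraries the counts were 4 and 2, against 9.12% and 1.16% of genes. The icKO calls of Ctla4 (-0.030, adjusted p = 1) and Nt5e (0.037, 0.98) and the Ctrl call of Fgl2 (2.46, 0.19) were lost, and Ctla4 changed sign. Fgl2 lay at 346, 209, 293 and 190.5 CPM in CNS Tconv icKO libraries against 10.8 and 14.8 CPM in dLN Tconv icKO libraries, and at 56.0, 117, 58.9 and 109 CPM in CNS Tconv Ctrl libraries against 20.6, 11.1 and 14.7 CPM in dLN Tconv Ctrl libraries. Entpd1 lay between 38.9 and 60.3 CPM in CNS Tconv icKO libraries and between 25.7 and 46.4 CPM in CNS Tconv Ctrl libraries, against 2.06 to 5.52 CPM in the 5 dLN Tconv libraries. Neither gene overlapped between the tissues. The 10 microglia markers summed to 164 to 481 CPM in the 8 CNS Tconv libraries, against 153 to 235 CPM in the 5 dLN Tconv libraries, and 4 of the 10 were called higher in the CNS in each genotype. Of the 18 myeloid markers, 2 were called higher and 1 lower in icKO mice and 0 higher and 1 lower in Ctrl mice. CNS Tconv Ctrl replicates 1 and 2 had the lowest myeloid sums of the CNS Tconv libraries, 117 and 61.4 CPM, with 7 and 12 of the 18 markers above 0 and with Csf1r and P2ry12 at 0. Their microglia sums were 164 and 220.5 CPM, with 5 and 7 of the 10 above 0. Fgl2 lay at 56.0 and 117 CPM in them. Entpd1 lay at 39.7 and 46.4 CPM in them. Ctrl replicate 1 had the lowest Fgl2 of the CNS Tconv libraries. It also detected the fewest genes of the 25 libraries (11089), which bears on its markers at 0. The part of microglial or other myeloid RNA in the CNS Tconv values was not tested.

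In numbers, the CNS over dLN log2 fold changes in icKO and Ctrl Tconv cells were 4.34 ± 0.70 and 2.46 ± 0.53 for Fgl2 (SE; edgeR adjusted p = 0.00026 and 0.0068), 3.31 ± 0.46 and 3.26 ± 0.39 for Entpd1 (adjusted p = 3.8e-05 and 2.8e-05), and 1.06 ± 0.27 and 1.05 ± 0.23 for Nrp1 (adjusted p = 0.0092 and 0.0061). Ebi3 had -2.09 ± 0.40 (adjusted p = 0.00098) in icKO and -1.03 ± 0.36 (adjusted p = 0.074) in Ctrl mice. Its icKO call was lost without the 5 CNS Tconv libraries whose file names disagree, which leaves 1 CNS Tconv icKO library. Ctla4 had 1.76 ± 0.47 (adjusted p = 0.015) in icKO and 0.36 (adjusted p = 0.6) in Ctrl mice, and Nt5e 1.09 ± 0.27 (adjusted p = 0.0079) and 0.36 (adjusted p = 0.33). The icKO calls lean on 2 dLN libraries: without dLN Tconv icKO replicate 1 the count fell to 3, with Ctla4 at 1.34 (adjusted p = 0.25), Nt5e at 1.02 (0.11) and Nrp1 at 1.15 (0.077), and without replicate 2 Nt5e (0.062) and Nrp1 (0.13) were lost. The Fgl2 call in Ctrl mice was lost without dLN Tconv Ctrl replicate 2 (2.27, adjusted p = 0.056).

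The genotype comparison asks what loss of TNFR2 in Treg cells did to these genes, in the Treg cells themselves and in the Tconv cells beside them. No member was called in CNS Treg, dLN Treg or dLN Tconv cells, where 0% of the 13500 genes were called in each (edgeR; 924, 149 and 189 genes had an unadjusted p under 0.05, and no member did). DESeq2 and limma-voom called no member there either. The members' log2 fold changes of icKO over Ctrl ran from -0.33 to 0.26 in CNS Treg and from -0.12 to 0.33 in dLN Treg cells. The genotypes overlapped for all 10 members in both. The summed CPM of 8 CD8 T and NK cell markers did not overlap in CNS Treg libraries, at 300.3 to 557 CPM in icKO against 161 to 183 CPM in Ctrl libraries, although 0 of the 8 were called. Its part in the members' values was not tested. Ctla4, for instance, lay at 331, 282 and 509.8 CPM in CNS Treg icKO against 244, 398 and 564 CPM in CNS Treg Ctrl libraries. These p-values do not show that the levels were the same, since the replicates of CNS Treg groups scattered by about 33.1% to 34.8%.

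In CNS Tconv cells, 4 members came close to the threshold without reaching it: 0 of 10 were called, when 3.13% of genes (422 of 13500) were, and with all 26 libraries 0, against 0.107% of genes. At an unadjusted p under 0.05 there were 4 members and 2426 genes. The member median was 0.57, against 0 over all genes. Fgl2 lay at 346, 209, 293 and 190.5 CPM in icKO against 56.0, 117, 58.9 and 109 CPM in Ctrl libraries, with no overlap and a log2 fold change of 1.61 ± 0.46 (SE; adjusted p = 0.058). Ctla4 lay at 116, 55.3, 135 and 76.0 CPM in icKO against 17.9, 41.1, 31.3 and 74.7 CPM in Ctrl libraries, which overlapped (1.21 ± 0.36, adjusted p = 0.067). Nt5e lay at 172, 56.9, 103 and 113 CPM in icKO against 57.6, 69.1, 79.9 and 67.0 CPM in Ctrl libraries (0.70 ± 0.21, adjusted p = 0.07), and Ebi3 at 5.60, 3.44, 2.23 and 4.03 CPM in icKO against 2.80, 9.14, 6.85 and 13.9 CPM in Ctrl libraries (-1.09 ± 0.35, adjusted p = 0.096), both with overlap.

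Other tests put some of these across the threshold. DESeq2 called all 4 of them, with adjusted p of 0.0083 for Ctla4, 0.017 for Fgl2, 0.026 for Nt5e and 0.028 for Ebi3, and limma-voom called 2, Fgl2 (0.018) and Ctla4 (0.0497). Leaving out 1 library also made calls: Ctla4 (adjusted p = 0.037) and Nt5e (0.0045) without icKO replicate 2, Ebi3 (0.022) without Ctrl replicate 1, and Ctla4 (0.0095) without Ctrl replicate 4. Of the 4 icKO libraries only replicate 1 has a file name of its own genotype, and it held the highest Fgl2 (346 CPM), Nt5e (172 CPM) and Ebi3 (5.60 CPM) of the 4. Among the other 3 libraries labelled icKO, Fgl2 lay between 190.5 and 293 CPM. That is above the libraries labelled Ctrl with a matching file name (56.0 and 117 CPM) and those without (58.9 and 109 CPM). This order rests on the labels. Grouped by file name instead, Fgl2 would lie at 346, 58.9 and 109 CPM in icKO libraries. Ctrl libraries would then hold 56.0, 117, 209, 293 and 190.5 CPM, and the genotypes would overlap. That grouping was not tested. Without the 5 libraries whose file names disagree, 1 icKO library stood against 2 Ctrl libraries, and the lone icKO library was assumed to vary like the other groups in the model. In that fit 1 member was called, Nt5e (1.45, adjusted p = 0.0044). Ctla4 had 1.98 (0.053), Fgl2 2.01 (0.22) and Ebi3 -0.10 (1). The myeloid sums of the genotypes overlapped in these cells, with icKO libraries at 158 to 431 CPM and Ctrl libraries at 61.4 to 418 CPM.

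**Figure D4:**
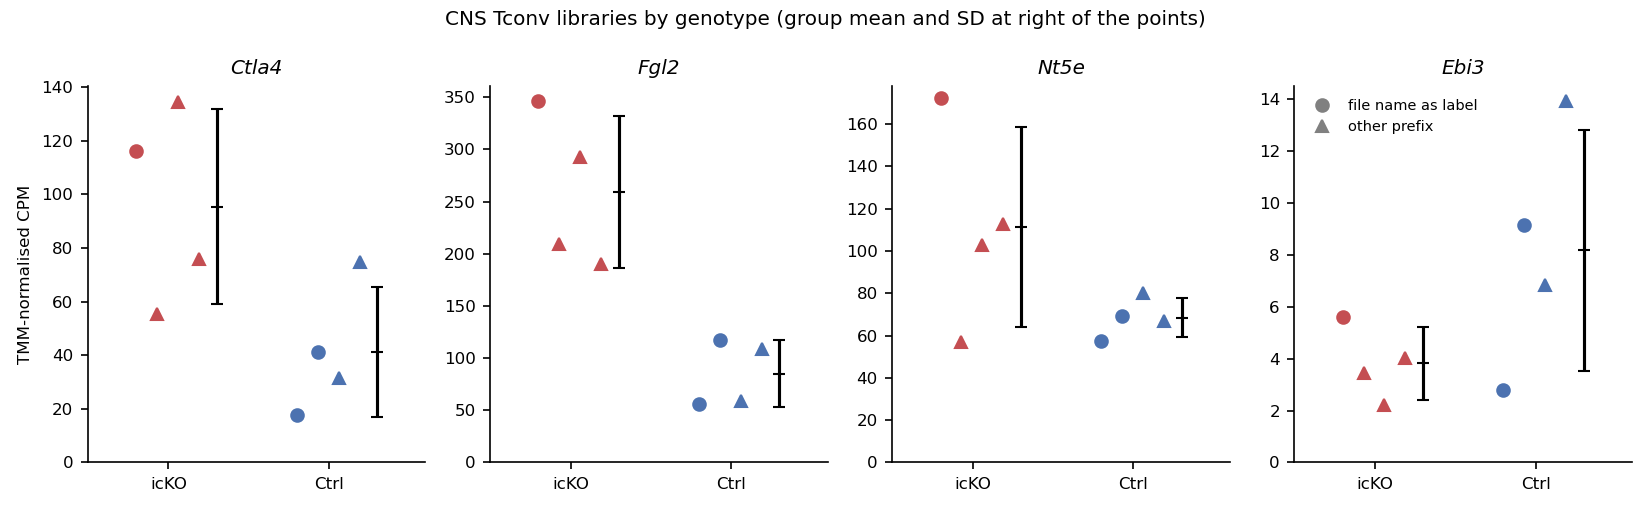
Ctla4, Fgl2, Nt5e and Ebi3 (CPM) in each CNS Tconv library, icKO left and Ctrl right; circles are libraries whose file name matches the label and triangles those whose file name carries the other prefix. By label, the 4 icKO libraries lie between 190.5 and 346 CPM for Fgl2, above the highest Ctrl library (117 CPM), and the genotypes overlap for the other 3 genes.

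Interaction terms tested whether one contrast differed between cell types. For the genotype effect in the CNS, Treg against Tconv cells, 0 members were called when 0.185% of genes were (edgeR; 0 members and 0% of genes with all 26 libraries). The smallest p-values belonged to differences of -0.92 ± 0.32 for Nt5e (SE, adjusted p = 0.18), -1.32 ± 0.53 for Ctla4 (0.25) and -1.61 ± 0.68 for Fgl2 (0.27). The targeted gene Tnfrsf1b was called (-1.31 ± 0.22, adjusted p = 0.021). Its term joins 2 changes. Mean Tnfrsf1b was 406 CPM in CNS Treg icKO against 610 CPM in Ctrl libraries, which was not called. In CNS Tconv cells, by label, it was 343 CPM in icKO against 208 CPM in Ctrl libraries, which was called higher. For the genotype effect in Treg cells, CNS against dLN, 0 members and 0% of genes were called. The tissue effect differed between Treg and Tconv cells for 2 members in icKO mice, when 8.21% of genes did: Ctla4 by -2.05 ± 0.61 (adjusted p = 0.041) and Nt5e by -1.34 ± 0.36 (adjusted p = 0.023), meaning that the CNS over dLN change was lower in Treg than in Tconv cells. In Ctrl mice it differed for 1 member, Nrp1, by -1.21 ± 0.33 (adjusted p = 0.043), when 3.55% of genes did. Ctla4 and Nt5e had -0.46 (adjusted p = 0.75) and -0.51 (0.46) in Ctrl mice, and Nrp1 had -1.08 ± 0.35 (0.063) in icKO mice. None of the 3 was called with all 26 libraries, which called 2.04% of genes in icKO and 0.0996% in Ctrl mice. Leaving out 1 library at a time ended the Ctla4 call in 8 of 12 fits, the Nt5e call in 3 of 12 and the Nrp1 call in 11 of 13.

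Genes that work with the members were counted by pathway, in lists that hold the partners and not the members. In the dLN, 0 of 24 genes of TGF-beta activation and signalling were higher and 4 lower in Treg cells of icKO mice, and 0 were higher and 5 lower in Ctrl mice. Over all genes 4.50% were lower in icKO and 5.47% in Ctrl mice. Tgfbr2, the signalling receptor, averaged 284 CPM in Treg against 646 CPM in Tconv cells of the Ctrl dLN, a log2 fold change of -1.19 ± 0.20 (SE; edgeR adjusted p = 0.00027), and Tgfbr3, a co-receptor, had -2.61 ± 0.59 (0.0059). In the CNS of Ctrl mice 5 of the 24 were higher and 2 lower, when 10.8% and 7.06% of genes were, among them Tgfbr1 (1.71 ± 0.25, adjusted p = 5.1e-05) and Tgfbr2 (-0.71 ± 0.18, 0.0095), beside the myeloid sums given above, whose part was not tested.

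Of 18 partners and regulators of IL-10 and IL-35, 7 were higher and 2 lower in dLN Treg cells of icKO mice, and 6 higher and 1 lower in Ctrl mice. Over all genes 5.47% were higher and 4.50% lower in icKO mice, and 5.97% higher and 5.47% lower in Ctrl mice, which is the background of every dLN count in this paragraph. Ahr, a ligand-activated transcription factor, averaged 104 CPM in Treg against 12.3 CPM in Tconv cells of the Ctrl dLN (3.08 ± 0.26, adjusted p = 6.6e-08), and Prdm1, which codes for Blimp-1, had 2.32 ± 0.31 (2.1e-05), while the kinase gene Jak1 had -0.80 ± 0.14 (0.00067). Of 18 adenosine genes tested, 2 were higher and 1 lower in the Ctrl dLN: Cd38 (1.95 ± 0.43, adjusted p = 0.0039) and Enpp1 (0.68 ± 0.22, 0.044), both ectoenzymes, and Entpd5 (-0.64 ± 0.15, 0.008). Of 16 genes of the CD28 and CTLA-4 axis, 3 were higher and 0 lower there, among them Icos, a costimulatory receptor (1.57 ± 0.30, adjusted p = 0.0012), and Cd80 (4.82 ± 0.81, 0.00032), which averaged only 5.93 CPM in Treg and 0.197 CPM in Tconv cells. Of 15 genes tested around the EGF family and Areg, 4 were higher and 0 lower, led by Rora (1.41 ± 0.18, adjusted p = 1.6e-05) and Il1rl1, which codes for the IL-33 receptor ST2 (3.70 ± 0.59, 0.00024).

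Among 27 other Treg genes, 18 were higher and 1 lower in dLN Treg cells in each genotype, against 5.47% of all genes higher and 4.50% lower in icKO mice and 5.97% higher and 5.47% lower in Ctrl mice. In Ctrl mice Il2ra, the high-affinity IL-2 receptor chain, had 4.12 ± 0.28 (SE; edgeR adjusted p = 6.7e-09) and Foxp3 5.55 ± 0.46 (6.6e-08), and Prf1, which codes for perforin, had -4.40 ± 0.54 (9.6e-06). Of 15 neuropilin and semaphorin genes tested, 2 were higher and 1 lower in Ctrl mice: Lgals1 (0.96 ± 0.19, adjusted p = 0.0017), Plxnd1 (1.61 ± 0.37, 0.0055) and Sema4a (-1.81 ± 0.25, 3.5e-05). These lists contain genes chosen for Treg biology, and their direction in Treg cells is no independent evidence.

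Between tissues in Ctrl Treg cells, 8 of the 18 IL-10 and IL-35 genes were higher and 4 lower in the CNS, when 13.2% and 8.59% of genes were, among them Il10rb (0.96 ± 0.14, edgeR adjusted p = 9.6e-05) and Stat3 (0.90 ± 0.14, 0.0001) higher and Batf (-0.78 ± 0.19, 0.0054) lower. Of 16 CD28 and CTLA-4 genes 2 were higher, Icosl (1.95 ± 0.37, adjusted p = 0.00087) and Cd86 (1.86 ± 0.36, 0.0011), which are ligands carried by antigen-presenting cells, and 6 were lower, with Ptpn11 (-1.38 ± 0.26, 0.00078) and Trat1 (-0.75 ± 0.15, 0.0012) first. The myeloid sums of 4877 to 6979 CPM in CNS Treg Ctrl against 165 to 1020 CPM in dLN Treg Ctrl libraries stand beside these, and their part was not tested. In Ctrl Tconv cells, Furin, the protease that processes pro-TGF-beta 1, was higher in the CNS (1.13 ± 0.29, adjusted p = 0.017), as was Rora (1.99 ± 0.18, 7.8e-07), and Il6st, the gp130 chain used by IL-27 and IL-35 receptors, was lower (-1.88 ± 0.40, 0.0057).

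In the genotype comparison of CNS Tconv cells, the partners held called genes where the members did not. The genotypes here rest on the labels, since 3 of 4 icKO and 2 of 4 Ctrl libraries have file names of the other genotype. Values of the partners without those libraries are not given. Of the 27 other Treg genes 7 were higher and 1 lower in icKO cells, when 1.59% and 1.53% of genes were: Ikzf4, which codes for Eos (1.74 ± 0.30, edgeR adjusted p = 0.0042), and Il2ra (1.19 ± 0.22, 0.0057) were higher, and Izumo1r, the folate receptor 4 gene (-1.13 ± 0.21, 0.0057), was lower. Mean Il2ra was 165 CPM in icKO libraries, against 72.2 CPM in Ctrl libraries. Furin (1.09 ± 0.26, adjusted p = 0.026) and Smad3 (0.80 ± 0.20, 0.031) were the 2 called of 24 TGF-beta genes, both higher. Adk, the adenosine kinase gene, was the 1 called of 18 adenosine genes (-0.66 ± 0.14, adjusted p = 0.012), and Nfil3, a regulator of Il10, the 1 called of 18 IL-10 and IL-35 genes (1.35 ± 0.34, 0.033). Tnfrsf1b itself was higher in icKO CNS Tconv cells (0.72 ± 0.14, adjusted p = 0.0084). None of the genes in these 7 lists was called in this comparison with all 26 libraries, and none was called in CNS Treg, dLN Treg or dLN Tconv cells, where no gene of the whole table was.

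The genes whose log2(CPM + 1) followed each member most closely across the 25 libraries are a description only, since the libraries share their populations and the correlations follow cell type and tissue. The order depends on the measure: by Spearman rank, at least 2 of the 3 closest genes were kept for 5 of the 10 members. Ctla4 was closest to Tnfrsf4 (Pearson r = 0.966, Spearman rho = 0.929), Ikzf4 (0.965, 0.83) and Areg (0.943, 0.902). Lrrc32 was closest to Ncmap (0.967, 0.837), Trib1 (0.961, 0.901) and Foxp3 (0.956, 0.735), none of which was among its 3 closest by Spearman, where Il10ra came first, and Nt5e to Tnfrsf4 (0.944, 0.905), Ctla4 (0.942, 0.875) and Tnfrsf1b (0.935, 0.913). Ebi3 was closest to Cd83 (0.972, 0.975), Itgae (0.961, 0.943) and Colq (0.961, 0.950), and Fgl2 to Lilrb4a (0.969, 0.954), a gene of an inhibitory receptor known from myeloid cells. Entpd1 was closest to Sdcbp2 (0.946, 0.912), Areg to Ctla4 (0.943, 0.902) and Nrp1 to Myo1e (0.952, 0.892). Il10 had the weakest closest gene, Naa20 (0.788, 0.749), followed by Tgfb1 with Ell2 (0.832, 0.824).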

How the data were processed

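Per the submitters' processing notes, reads were handled with FastQC, Trimmomatic, STAR 2.5.3a and RSEM 1.2.28 on mm10, and per the labels' protocols the libraries were made with SMART-Seq v4 and Nextera, which keep no strand. The authors deposited, for each library, RSEM expected counts, TPM and FPKM for 24848 gene symbols. The deposited expected counts were rounded and tested with edgeR 4.0.16 (R 4.3.3, TMM, filterByExpr, quasi-likelihood) in 1 model of 8 group means over 25 libraries, with Benjamini-Hochberg adjustment over 13500 genes (13054 with 26 libraries) and calls at an adjusted p under 0.05. All 10 members passed the filter on low counts. There were 12 pair comparisons and 4 interactions. CPM are TMM-normalised. The deposited TPM served for the order between genes and the deposited FPKM as an alternative. Marker sums use library totals. Without strand, reads of overlapping antisense genes cannot be told apart.

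Named genes are all members, Tnfrsf1b, Foxp3, up to 2 called genes per direction with the smallest p from each of 7 pathway lists, and the genes most correlated with each member. The members and lists were chosen with earlier results of these data known. The code was run on simulated data. How well it finds differences in scarce genes, in small groups or in interaction terms was not tested. Alternatives were DESeq2 1.42.0, limma-voom (limma 3.58.1), other scalings, filters and libraries left out. In the main model each p-value sets a difference between groups against the spread between replicates. That spread was estimated over all groups, with the libraries taken as independent. Figures used matplotlib 3.10.9.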

Additional observations from a re-analysis of the deposited data

Results flagged for a closer look

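The CNS over dLN change differed between Treg and Tconv cells, by an interaction term in edgeR, for Ctla4 (-2.05) and Nt5e (-1.34) in icKO mice and for Nrp1 (-1.21) in Ctrl mice, all on the log2 scale. Each was lower in Treg than in Tconv cells. None of the 3 was called with all 26 libraries, and leaving out 1 library ended the call in 8 of 12 fits for Ctla4, 3 of 12 for Nt5e and 11 of 13 for Nrp1.

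The library labelled dLN Tconv icKO replicate 3, left out of the model, held 6 of the 10 members and Foxp3 at levels above those of every dLN Tconv Ctrl library. It held 197 TPM of Ctla4, 134 TPM of Ebi3, 94.7 TPM of Nt5e, 101 TPM of Tgfb1, 27.5 TPM of Areg, 2.5 TPM of Lrrc32 and 5.47 TPM of Foxp3, against means of 29.6 TPM for Ctla4, 26.9 TPM for Ebi3, 25.4 TPM for Nt5e, 85.6 TPM for Tgfb1, 1.56 TPM for Areg and 0.243 TPM for Lrrc32 in the 3 dLN Tconv Ctrl libraries. Nrp1 was lower, at 13.4 TPM against a mean of 20.3 TPM, and Entpd1, Fgl2 and Il10 were at 0 in it. Its sums were 3313 CPM for the 18 myeloid markers, 5083 CPM for the 10 dendritic cell markers and 3371 CPM for the 8 neutrophil markers, and their part in these values was not tested.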

How the results depend on the processing

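Il10 and the Tconv values of Lrrc32 rest on few counts, with 0 in some libraries, and 2 dLN Tconv icKO libraries limit every comparison that uses that group. The labels do not say whether replicate numbers pair libraries of 1 mouse. Correlations of deviations between libraries of the same number ran from -0.199 to 0.173, genotype comparisons of different mice among them. For Treg against Tconv they were 0.065 to 0.173 in icKO CNS and -0.039 to 0.0721 in Ctrl CNS. In the dLN they were 0.087 to 0.104 in icKO and 0.0368 to 0.155 in Ctrl mice. With 2 or 3 pairs each, these values cannot decide whether samples were paired. The main model took the libraries as independent. The members called with the replicate block were 1 in CNS Tconv for icKO against Ctrl (Ctla4, 1.32, adjusted p = 0.0499) and 0 in the other genotype comparisons; Ctla4 was no longer called in the icKO tissue interaction (-1.86, 0.057). The cause of the changes below was not tested.

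For icKO against Ctrl in CNS Tconv cells the count of members called, 0 as reported, was 4 with DESeq2, 2 with limma-voom, and 1 each at 10 CPM in 3 libraries, with the replicate block, with the compared groups alone and without the 5 libraries whose file names disagree. It was 0 to 2 without any 1 library. With all 26 libraries the counts were 1 for CNS against dLN in icKO Treg and 1 in Ctrl Treg, 3 and 5 for Treg against Tconv in icKO and Ctrl CNS, 4 in icKO dLN, and 0 for both tissue interactions. Without the 5 libraries, which leaves 1 CNS Tconv icKO library assumed to vary like the other groups, the counts were 2 for icKO CNS and 1 for the genotype interaction. Without a filter the tissue interactions gave 1 in icKO and 0 in Ctrl mice. Leaving out 1 library gave 3 to 6 for CNS against dLN in icKO Tconv, 0 to 3 for the icKO and 0 to 1 for the Ctrl tissue interaction. By FPKM, 2 members changed rank in CNS Tconv Ctrl libraries.

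Directions turned only where nothing was called, except where named. For icKO against Ctrl in CNS Treg cells, Fgl2 was -0.0059 with DESeq2 size factors, -0.0055 with DESeq2, -0.0026 at 10 CPM, -0.0066 with all 26 libraries and -0.0044 with the groups alone, and Nrp1 was -0.0055 with limma-voom. In dLN Treg cells Il10 was -0.080 and Fgl2 0.063 with the block, and Fgl2 was 0.00082 with DESeq2 and 0.010 with all 26. In CNS Tconv cells Lrrc32 was 1.06 with limma-voom. In dLN Tconv cells with all 26, Ctla4 was 1.59, Ebi3 1.29, Entpd1 -0.16, Nt5e 1.01, Lrrc32 1.91, Areg 2.75 and Nrp1 -0.091. There Lrrc32 was 0.25 and Areg 0.27 with limma-voom, and Areg was 0.26 with the block. A call turned for Ctla4 in CNS against dLN icKO Tconv, at -0.030 with all 26.

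Without any 1 library, icKO against Ctrl ranged in CNS Treg cells from -0.31 to 0.34 for Areg, -0.39 to 0.22 for Ctla4, -0.52 to 0.091 for Ebi3, -0.19 to 0.41 for Entpd1, -0.35 to 0.32 for Fgl2, -2.69 to 0.42 for Il10, -0.48 to 0.37 for Lrrc32 and -0.22 to 0.39 for Nrp1. In dLN Treg cells it ranged from -0.088 to 0.048 for Ebi3, -0.021 to 0.61 for Entpd1, -0.49 to 0.62 for Fgl2, -0.27 to 0.48 for Il10, -0.091 to 0.042 for Nrp1 and -0.12 to 0.011 for Tgfb1. In CNS Tconv cells it ranged from -0.64 to 1.09 for Lrrc32 and -0.15 to 0.21 for Nrp1. In dLN Tconv cells it ranged from -0.68 to 0.84 for Areg, -0.74 to 0.21 for Ctla4, -0.50 to 0.32 for Ebi3, -1.55 to 1.75 for Il10, -6.04 to 4.96 for Lrrc32, -0.033 to 0.17 for Nrp1 and -0.14 to 0.038 for Nt5e.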
